A study of Rattus norvegicus with 12 samples.

Results

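The 46 genes described here encode ribosome biogenesis factors, the proteins that make, modify, cut and fold ribosomal RNA and join it to ribosomal proteins. They are a list of names from general knowledge of the pathway, with no threshold on their values, but earlier results of these data were known when it was written. All 46 were found in the expression table, each symbol at 1 locus, and all 46 reached a mean of 1 TPM, out of 30562 genes in all and 12263 at that level. TPM is a share of a library's total, corrected for transcript length, so levels can be compared between genes.

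Ribosomes are built mainly in the nucleolus. RNA polymerase I copies the ribosomal DNA into 1 long precursor, small nucleolar ribonucleoproteins (snoRNPs) guide the chemical modification of that RNA, and large assemblies then cut and fold it into the RNA of the small (40S) and the large (60S) subunit. The work takes much of a growing cell's energy, and many of the genes involved are textbook targets of the transcription factor MYC, which binds the E-box CACGTG. In heart muscle, more ribosome production is known to accompany growth of the cells.

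The cells were H9c2, an established rat line derived from the embryonic heart; the labels give the cell type as cardiomyocytes. The 4 groups of 3 libraries were untreated control cells (Ctrl), cells treated with MMA (methylmalonic acid), with FA (folic acid), and with both (MMA_FA). The sources used here give neither doses nor times of treatment. Nothing says whether the 3 libraries of a group came from separate cultures, so p-values measure only the spread between these samples. Of the cardiomyocyte markers looked up, 1 of 11 had a mean of 1 TPM or more, Tnnt2, while Myh6, Myh7, Actc1 and Nppa had means of at most 0.115 TPM. Of the skeletal muscle genes 5 of 8 reached that mean, among them the myogenic factors Myod1 (mean 54.9 TPM) and Myog (mean 17.4 TPM). The myogenic factor Myf5 did not (mean 0.014 TPM). Of the fibroblast genes 6 of 8 had a mean of 1 TPM or more.

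The number of genes at 1 TPM or more ran from 12258 to 12286 in Ctrl and from 12070 to 12243 in the treated libraries. Read depth is unknown, because TPM keeps none. Mitochondrially encoded transcripts held 8.78% to 11.4% of the total. The 100 most abundant genes held 34.9% to 35.5% in Ctrl and 36.4% to 38.4% in the treated libraries. The summed TPM of the cardiomyocyte markers, nearly all of it Tnnt2, was 15.5 to 20.1 in Ctrl, 21.3 to 23.8 in MMA, 43.9 to 48.02 in FA and 68.6 to 86.5 in MMA_FA. The skeletal muscle sum was 103 to 114 in Ctrl, 89.5 to 93.96 in MMA, 91.8 to 104 in FA and 68.7 to 80.5 in MMA_FA. Fibroblast sums overlapped between Ctrl (9787 to 10584) and both MMA and MMA_FA, and were 11449 to 13373 in FA. The 6 endothelial markers summed to at most 0.48 in any library, 1 of 5 leukocyte markers (Cd3e) reached a mean of 1 TPM, and so did 1 of 4 epithelial markers, Krt8, with sums of 19.8 to 21.99 in Ctrl and 24.6 to 33.9 in the treated libraries. The part of these differences in the results below was not tested. In bulk RNA, a change in the mix of cells and a change of RNA within each cell cannot be told apart.

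Because the genes are linked in textbooks to MYC, their promoters were read for its E-box. RefSeq promoters (build GRCr8, while the expression values rest on mRatBN7.2) were at hand for 42 of the 46 genes, as 250 bases before to 50 after the annotated start; Wdr43, Rrs1, Dcaf13 and Bop1 had no entry. The motif CACGTG, which reads the same on both strands, was in 15 of the 42 (35.7%), against 6.65% of all 27457 promoters in the table and 9.68% of the 9232 promoters of genes tested here. The members' median GC content was 59.5%, that of all promoters 52.3% and that of the tested genes 61.0%. The 15 promoters held 17 copies, 13 of them (76.5%) within 100 bases of the start, against 56.3% of the 2004 copies in all promoters. Of the genes called lower in at least 1 comparison with Ctrl below, 9 of 24 held the motif, and of those not called lower 6 of 18. A match is a string of letters and no evidence of binding, and no match says only that the letters are not in this window.

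The promoters of 5 genes are printed from 170 bases before to 30 after the start, with each CACGTG in capitals. Mybbp1a (chr10:57555288-57555487, plus strand) is shown as the called gene with 2 copies, whose first bases lie at -156 and -1 counted from the start; Utp18, which was called in no comparison with Ctrl, also has 2, at -90 and 4. Rrp12 (chr1:250655289-250655488, minus strand, copy at 4), Tsr1 (chr10:60258620-60258819, plus strand, copy at 21) and Noc3l (chr1:245997679-245997878, minus strand, copy at 19) are the genes with a copy that were lower than Ctrl in all 3 treated groups. Pes1 (chr14:83074176-83074375, plus strand, copy at -50) is the 1 gene called higher against Ctrl, and was added after its values were seen.
Mybbp1a: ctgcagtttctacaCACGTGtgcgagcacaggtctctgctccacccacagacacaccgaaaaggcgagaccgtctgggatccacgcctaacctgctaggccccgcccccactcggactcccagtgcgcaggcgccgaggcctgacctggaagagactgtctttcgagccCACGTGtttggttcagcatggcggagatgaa
Rrp12: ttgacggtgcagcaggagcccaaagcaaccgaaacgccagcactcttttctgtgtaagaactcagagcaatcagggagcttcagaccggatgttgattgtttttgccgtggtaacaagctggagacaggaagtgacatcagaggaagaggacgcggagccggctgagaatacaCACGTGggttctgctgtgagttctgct
Tsr1: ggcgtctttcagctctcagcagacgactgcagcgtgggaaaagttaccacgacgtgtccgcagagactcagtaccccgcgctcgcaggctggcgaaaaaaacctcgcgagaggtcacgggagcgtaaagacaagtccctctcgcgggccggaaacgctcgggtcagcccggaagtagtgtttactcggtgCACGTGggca
Noc3l: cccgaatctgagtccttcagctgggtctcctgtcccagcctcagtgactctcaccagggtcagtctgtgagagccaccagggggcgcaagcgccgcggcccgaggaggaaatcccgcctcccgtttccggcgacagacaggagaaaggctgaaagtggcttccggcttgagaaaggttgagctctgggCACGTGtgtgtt
Pes1: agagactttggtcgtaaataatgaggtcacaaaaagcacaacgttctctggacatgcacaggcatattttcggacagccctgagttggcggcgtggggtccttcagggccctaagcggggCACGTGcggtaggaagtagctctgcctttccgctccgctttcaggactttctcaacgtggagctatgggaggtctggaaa
The copies in Rrp12, Tsr1 and Noc3l lie just after the start, and that in Pes1 lies before it. Ubtf, Nop56, Nop58, Heatr1 and Ncl, which are among the clearest decreases below, had no CACGTG in their windows. Wdr75, which is also among those decreases, had 1 copy, at -160.

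The 46 genes were expressed at intermediate to high levels. Their mean TPM over the 12 libraries ran from 8.39 (Utp20) to 523 (Ncl), with a median of 40.7 against 19.8 for all genes tested, and 38 of the 46 lay above that of the median gene. Ncl and Npm1 together made up the largest share of their summed TPM, with 16.2% and 15.6%. The sum over the 46 genes was 3480 ± 57.9 TPM in Ctrl (SD, n = 3), 3212 ± 101 in MMA, 3138 ± 79.99 in FA and 3070 ± 45.7 in MMA_FA. The lowest Ctrl library stood at 3429 and the highest treated library at 3295, so on TPM as deposited the 9 treated libraries all lay below the 3 controls. Under median-ratio scaling, which is described below, the sums overlapped: 3282 to 3366 in Ctrl, 3179 to 3284 in MMA, 2999 to 3176 in FA and 3122 to 3322 in MMA_FA, with FA alone wholly below Ctrl.

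**Figure D1:**
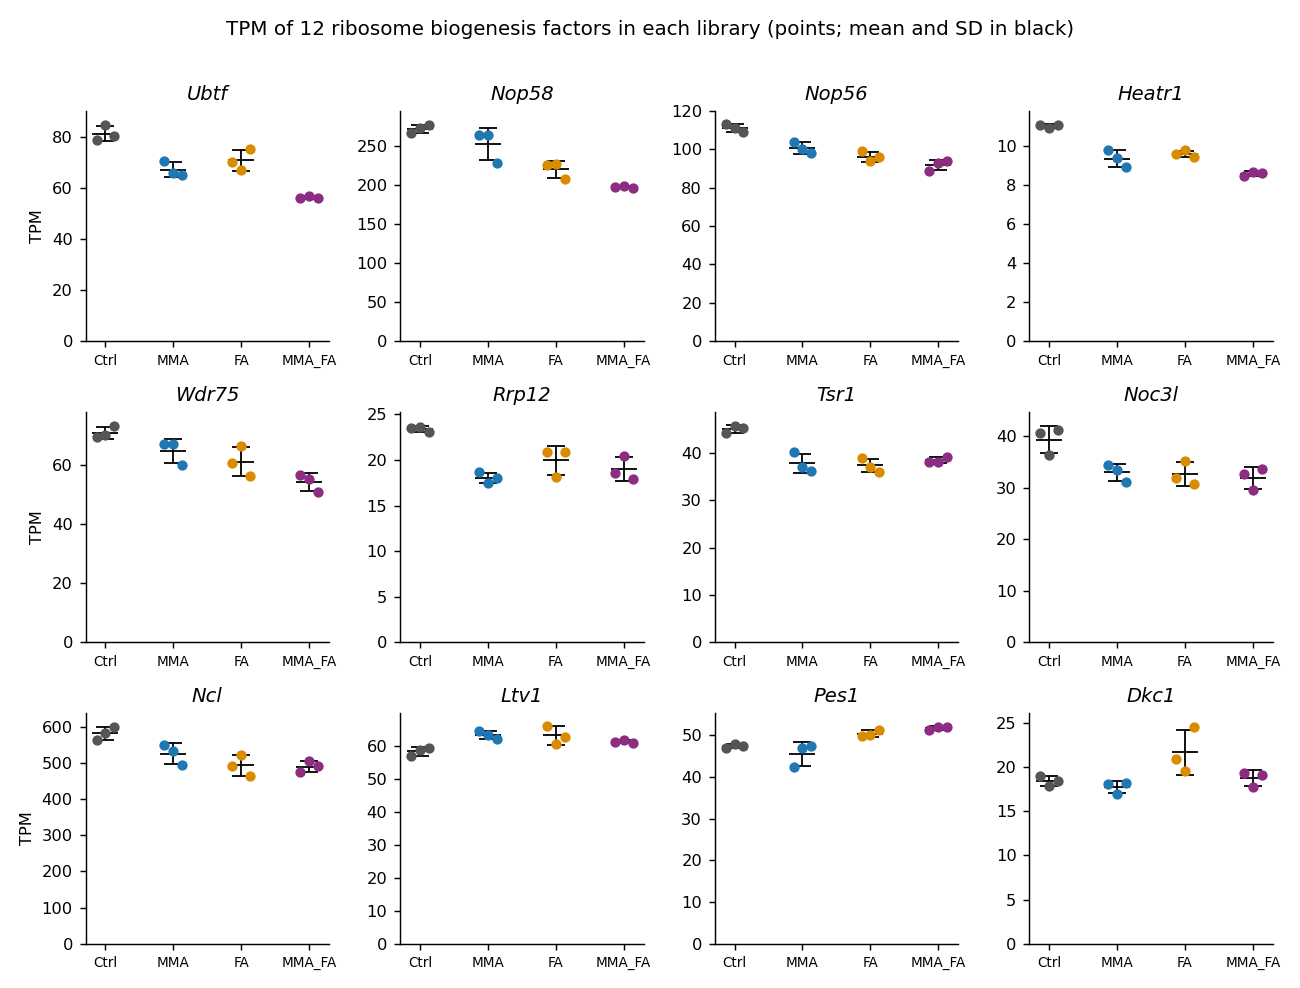
TPM of 12 of the genes in each of the 12 libraries (vertical axis, from 0), with 3 points a group (horizontal axis) and the group mean and SD in black. The genes were chosen after their values were seen. Ubtf falls from 78.9 to 84.5 TPM in Ctrl to 55.9 to 56.8 in MMA_FA, while all treated libraries of Ltv1 lie above its controls.

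The comparisons with Ctrl ask what MMA, FA and the pair of them did to these genes. Genes were called at an adjusted p under 0.05 in limma, fitted on log2(TPM + 1) over all 12263 genes and 12 libraries, with Benjamini-Hochberg adjustment, and differences below are on that log2 scale. With MMA 16 of the 46 genes were lower and none higher, with FA 11 and none, and with MMA_FA 22 lower and 1 higher. At an unadjusted p under 0.05, in either direction, 26, 25 and 27 of them differed, against 36%, 31.1% and 48.6% of all genes. By the adjusted p, across all genes tested, 16.5% were lower with MMA, 8.7% with FA and 32.6% with MMA_FA, and 3.85%, 3.67% and 6.67% were higher. The members' median difference was -0.13 with MMA, -0.12 with FA and -0.14 with MMA_FA, against -0.07, -0.05 and -0.12 for all genes. The shift of all genes with MMA_FA is thus nearly as large as that of the members.

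Because TPM is a share, these counts hang on the scaling. When each library was instead divided by its median ratio over the tested genes (median-ratio scaling), the median gene no longer moved against Ctrl, and the members gave 5 lower and 1 higher with MMA, 5 lower and 2 higher with FA, and 5 lower and 3 higher with MMA_FA. The background then was 6.91%, 3.88% and 13.9% lower and 8.16%, 5.78% and 15.5% higher. The members' median differences were -0.06, -0.07 and -0.03. Decreases on TPM as deposited are therefore relative to the whole library. In each comparison 5 of the called genes were lower under both scalings, and the accounts below say which.

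The libraries themselves separated from Ctrl more often than the calls did. For 30 of the 46 genes all 3 MMA libraries lay below all 3 Ctrl libraries, against 34.8% of all genes. The same held for FA in 26 genes (24.3% of all genes) and for MMA_FA in 29 (43.4%). The opposite order was seen in 2, 3 and 2 genes, against 10.5%, 9.43% and 10.4% of all genes.

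Of the 46 genes, 7 were lower in each of the 3 comparisons with Ctrl (4.62% of all genes), which share the Ctrl libraries: Ubtf, Nop56, Heatr1, Utp15, Rrp12, Tsr1 and Noc3l. None was higher in all 3, and 20 were called in none (53.6% of all genes).

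With 1 library left out at a time, the number of the 46 called lower was 7 to 12 for MMA, 3 to 15 for FA and 15 to 19 for MMA_FA. The share of all genes called lower in these fits was 7.64% to 13.1%, 1.17% to 13.9% and 24.6% to 28.5%. The MMA count was 10 without Ctrl replicate 1, 7 without Ctrl replicate 3, 8 without MMA replicate 2 and 9 without MMA replicate 3. For FA it was 6 without Ctrl replicate 1 or 2, 3 without Ctrl replicate 3 or FA replicate 1, and 5 without FA replicate 3. The share of all genes called lower with FA fell as well, to 1.17% without Ctrl replicate 3 and 1.79% without FA replicate 1. Without FA replicate 2 it rose to 13.9%, and that fit gave the FA count of 15. Called genes that kept their call whichever library was left out numbered 6 for MMA, 3 for FA and 14 for MMA_FA.

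**Figure D2:**
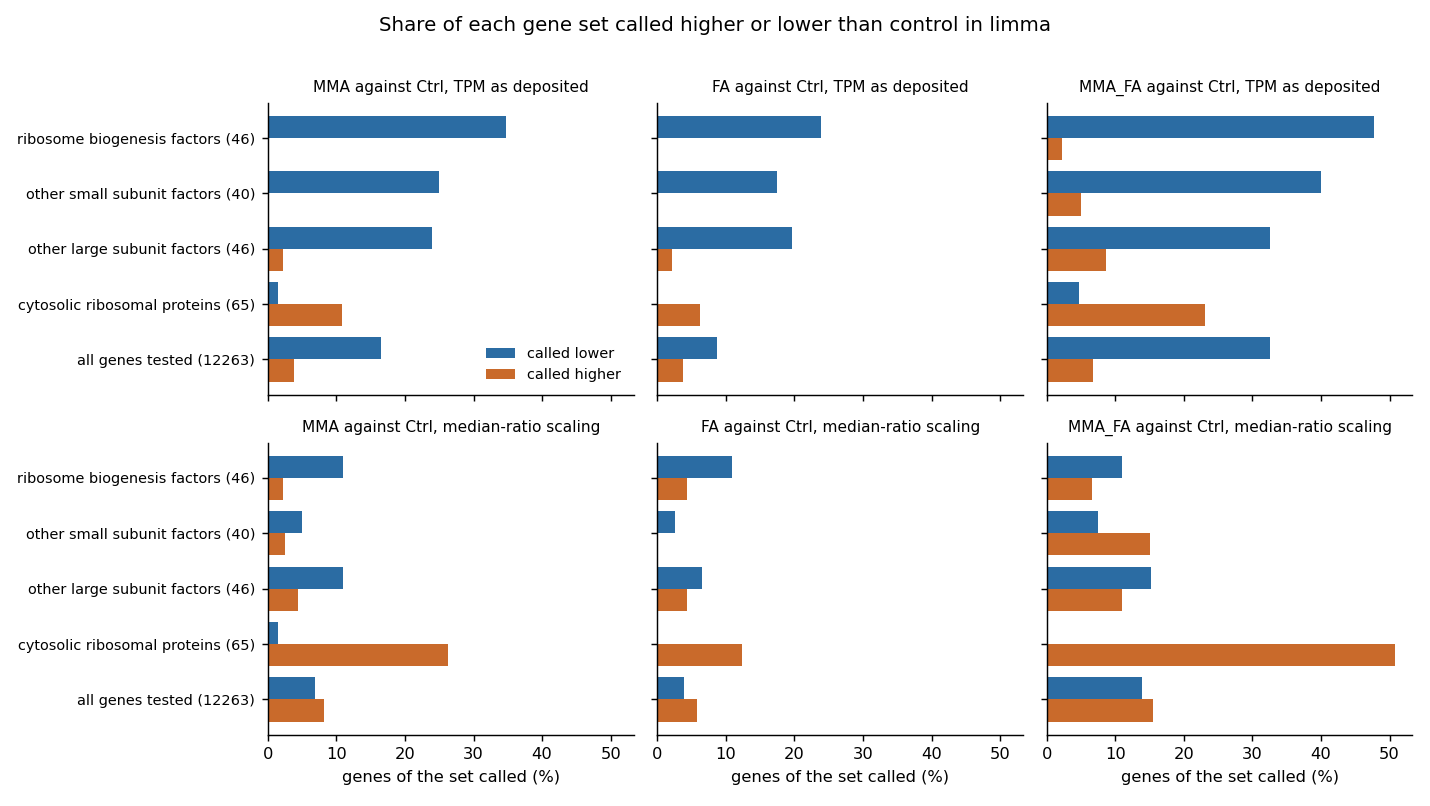
Share of genes called lower (blue) or higher (orange) in limma, in percent (horizontal axis), for the 46 genes, 3 other lists and all genes tested, in the 3 comparisons with Ctrl. The upper row is TPM as deposited and the lower row median-ratio scaling; for MMA_FA the share of the 46 called lower is 47.8% above and 10.9% below.

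Among the 5 genes of RNA polymerase I transcription, Ubtf changed most. It encodes UBF, the protein that coats active ribosomal DNA and helps to recruit the polymerase. Ubtf stood at 78.9, 84.5 and 80.4 TPM in the 3 Ctrl libraries, 70.6, 65.7 and 65.1 in MMA, 70.1, 67.1 and 75.3 in FA and 55.98, 56.8 and 55.9 in MMA_FA. Every treated library lay below every control, and the 3 MMA_FA libraries also lay below all MMA and all FA libraries. The difference from Ctrl was -0.27 (SE 0.05, adjusted p = 0.00477) with MMA, -0.20 (SE 0.05, adjusted p = 0.0277) with FA and -0.52 (SE 0.05, adjusted p = 3.36e-05) with MMA_FA. The MMA and MMA_FA decreases passed under both scalings and with any 1 library left out; the FA decrease did not pass under median-ratio scaling (-0.15, adjusted p = 0.0739), in a fit of only the FA and Ctrl libraries (adjusted p = 0.0747) or in 4 of 6 fits with a library left out, those without FA replicate 1 or without any 1 of the Ctrl libraries, with adjusted p up to 0.0892.

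The other members of that group moved less. Polr1c, a subunit that polymerases I and III share, was called lower with MMA_FA (-0.24, SE 0.06, adjusted p = 0.0106), and median-ratio scaling ended its call (adjusted p = 0.164). The Polr1c level was 36.7, 39.4 and 34.2 TPM in the 3 Ctrl libraries, 32.2, 33.8 and 32.6 in MMA, 33.9, 34.96 and 37.5 in FA and 32.9, 28.9 and 31.4 in MMA_FA. Its MMA and MMA_FA libraries lay below Ctrl and its FA libraries overlapped Ctrl. Polr1a, the largest catalytic subunit, was at -0.18 with MMA (adjusted p = 0.0553), 0.03 with FA and -0.11 with MMA_FA, none called. Polr1b, the second largest subunit, and Rrn3, which links the polymerase to its promoter, lay between -0.13 and 0.01 in the 3 comparisons and were not called.

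The 4 box C/D genes encode proteins of a snoRNP class that includes the guides of 2′-O-methylation of ribosomal RNA. Of these 4, the core pair Nop56 and Nop58 was lower and Fbl and Rrp9 were not called. For Nop58 the values were 266, 272 and 276 TPM in the 3 Ctrl libraries, 264, 264 and 228 in MMA, 225, 227 and 207 in FA and 197, 199 and 196 in MMA_FA. All FA and MMA_FA libraries lay below all Ctrl libraries, and so did the MMA libraries, of which replicates 1 and 2 came close to the lowest control. Nop58 differed from Ctrl by -0.30 (SE 0.06, adjusted p = 0.00954) with FA and -0.46 (SE 0.06, adjusted p = 0.00013) with MMA_FA, under both scalings and with any 1 library left out. With MMA its difference was -0.11 and was not called.

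Nop56 was at 113, 111 and 109 TPM in the 3 Ctrl libraries, 104, 100.4 and 97.9 in MMA, 98.9, 93.8 and 95.8 in FA and 88.8, 92.97 and 93.9 in MMA_FA. Each treated group lay wholly below Ctrl. Its difference was -0.14 (SE 0.04, adjusted p = 0.0253) with MMA, -0.21 (SE 0.04, adjusted p = 0.011) with FA and -0.27 (SE 0.04, adjusted p = 0.000377) with MMA_FA. The FA and MMA_FA calls held under both scalings and with any 1 library left out, while median-ratio scaling ended the MMA call (-0.06, adjusted p = 0.297), as did 5 of 6 fits with a library left out. Fbl, the methyltransferase itself, stayed between 84.8 and 99.1 TPM with overlapping groups and differences of at most 0.07. Rrp9, which binds the U3 snoRNA, was at -0.17 with MMA_FA and not called.

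The box H/ACA proteins, which turn uridine into pseudouridine, gave 1 call in the 3 comparisons with Ctrl. Gar1 was lower with FA (-0.24, SE 0.07, adjusted p = 0.0414); it missed the threshold with median-ratio scaling (adjusted p = 0.101) and in 4 of 6 fits with a library left out. Gar1 measured 37.02, 32.4 and 38.5 TPM in the 3 Ctrl libraries, 34.02, 34.4 and 31.8 in MMA, 29.9, 31.7 and 28.99 in FA and 30.4, 34.6 and 30.9 in MMA_FA. The FA libraries lay wholly below Ctrl, and the other 2 groups overlapped it. Nop10, a small protein with the highest level of this group, was not called. Nop10 stood at 165, 159 and 179 TPM in the 3 Ctrl libraries, 166, 180.0 and 166 in MMA, 156, 158 and 138 in FA and 152, 157 and 164 in MMA_FA. Its FA libraries lay below Ctrl and its MMA and MMA_FA libraries overlapped them.

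Dkc1, the pseudouridine synthase, and Nhp2 were not called on TPM as deposited and were called higher under median-ratio scaling, Dkc1 with FA (0.26, adjusted p = 0.0343) and Nhp2 with MMA_FA (0.18, adjusted p = 0.0442); both are named after their values were seen. The Dkc1 level was 19.1, 17.9 and 18.5 TPM in the 3 Ctrl libraries, 18.1, 16.9 and 18.2 in MMA, 20.9, 19.6 and 24.5 in FA and 19.4, 17.7 and 19.2 in MMA_FA. The FA libraries were the highest of the 4 groups. For Nhp2 the values were 19.8, 20.2 and 20.4 TPM in the 3 Ctrl libraries, 21.7, 20.8 and 23.3 in MMA, 18.1, 17.8 and 19.4 in FA and 19.9, 21.7 and 21.6 in MMA_FA. All MMA libraries lay above Ctrl and all FA libraries below it. Nolc1, the chaperone of these particles, was not called, with differences down to -0.08 (MMA).

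The 18 genes of the small subunit processome and of 40S maturation are the largest group and held the most calls. Of these 18, 9 were lower with MMA, 4 with FA and 12 with MMA_FA, and none was higher. The shares of all genes called lower were 16.5%, 8.7% and 32.6%. The processome is the large particle that forms on the 5′ part of the precursor and releases the RNA of the small subunit. The median differences of these 18 were -0.18, -0.15 and -0.16. Under median-ratio scaling 3 were lower with MMA, 1 with FA and 2 with MMA_FA, and 1, Ltv1, was higher in each. Of all genes, 6.91%, 3.88% and 13.9% were lower under that scaling.

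Rrp12, a HEAT-repeat protein of pre-40S export and maturation, had the largest decrease with MMA of any of the 46 genes. Rrp12 measured 23.6, 23.7 and 23.1 TPM in the 3 Ctrl libraries, 18.6, 17.5 and 17.99 in MMA, 20.9, 18.1 and 20.9 in FA and 18.6, 20.5 and 17.9 in MMA_FA. Every treated library was below every control. The difference was -0.36 (SE 0.06, adjusted p = 0.00429) with MMA, -0.22 (SE 0.06, adjusted p = 0.0412) with FA and -0.29 (SE 0.06, adjusted p = 0.00408) with MMA_FA. The MMA call held under both scalings and with any 1 library left out, the MMA_FA call missed the threshold with median-ratio scaling (adjusted p = 0.0745), and the FA call was lost there (adjusted p = 0.112) and in all 6 fits with a library left out.

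Tsr1, a GTPase-like factor bound to pre-40S particles, was at 44.2, 45.7 and 45.3 TPM in the 3 Ctrl libraries, 40.1, 37.1 and 36.3 in MMA, 38.9, 37.1 and 36.1 in FA and 38.1, 38.1 and 39.2 in MMA_FA. The 3 treated groups lay below Ctrl at nearly the same level. Its difference was -0.25 (SE 0.05, adjusted p = 0.00564) with MMA, -0.26 (SE 0.05, adjusted p = 0.0095) with FA and -0.22 (SE 0.05, adjusted p = 0.00318) with MMA_FA, and all 3 calls held with any 1 library left out. Under median-ratio scaling the MMA and FA calls held and the MMA_FA call did not (-0.10, adjusted p = 0.102).

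Heatr1, Utp4, Utp15, Wdr43 and Wdr75 belong to the subcomplex (UTP-A or t-UTP) that also supports transcription of ribosomal DNA. Heatr1 stood at 11.1, 10.9 and 11.03 TPM in the 3 Ctrl libraries, 9.78, 9.35 and 8.88 in MMA, 9.55, 9.75 and 9.43 in FA and 8.42, 8.67 and 8.62 in MMA_FA. Every treated library was below every control, and all MMA_FA libraries were below all MMA and all FA libraries. Heatr1 differed by -0.22 (SE 0.05, adjusted p = 0.0144) with MMA, -0.18 (SE 0.05, adjusted p = 0.041) with FA and -0.33 (SE 0.05, adjusted p = 0.000641) with MMA_FA. The MMA_FA call alone held under both scalings and with any 1 library left out; the MMA call was lost without Ctrl replicate 1 or MMA replicate 3, and the FA call in 5 of 6 such fits.

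Wdr75 was called with MMA_FA (-0.38, SE 0.07, adjusted p = 0.00103), under both scalings and with any 1 library left out, and not with MMA or with FA (-0.21, adjusted p = 0.054). The Wdr75 level was 69.5, 70.2 and 73.2 TPM in the 3 Ctrl libraries, 67.2, 67.3 and 59.96 in MMA, 60.8, 66.5 and 56.5 in FA and 56.8, 55.5 and 50.97 in MMA_FA. The 3 treated groups lay below Ctrl, with MMA_FA lowest. Wdr43 had the highest level of the 18 genes. For Wdr43 the values were 117, 114 and 122 TPM in the 3 Ctrl libraries, 114, 109 and 103 in MMA, 107, 111 and 102 in FA and 96.9, 106 and 99.6 in MMA_FA. All treated libraries lay below all controls. It was called with MMA_FA (-0.22, SE 0.05, adjusted p = 0.00482); median-ratio scaling ended the call (adjusted p = 0.179).

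Utp15 was at 30.8, 31.7 and 33.5 TPM in the 3 Ctrl libraries, 27.4, 27.6 and 27.7 in MMA, 27.1, 29.2 and 25.4 in FA and 26.2, 27.2 and 27.7 in MMA_FA. All treated libraries lay below all controls, and the treated groups overlapped each other. The difference was -0.21 (SE 0.05, adjusted p = 0.0199) with MMA, -0.23 (SE 0.05, adjusted p = 0.0224) with FA and -0.24 (SE 0.05, adjusted p = 0.00503) with MMA_FA, none of which passed under median-ratio scaling (adjusted p = 0.129, 0.0611 and 0.135). The FA call was also lost in a fit of only the 2 groups (adjusted p = 0.0765). With a library left out, the MMA and FA calls were each lost in 4 of 6 fits and the MMA_FA call in none.

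Utp4 was at 47.7, 44.9 and 47.5 TPM in the 3 Ctrl libraries, 41.6, 38.8 and 38.2 in MMA, 43.8, 41.3 and 40.5 in FA and 43.4, 41.4 and 41.8 in MMA_FA. Its treated libraries all lay below Ctrl, the MMA ones lowest on average. It was called with MMA (-0.23, SE 0.05, adjusted p = 0.00767, under both scalings and with any 1 library left out) and with MMA_FA (-0.14, SE 0.05, adjusted p = 0.0333), the latter ended by median-ratio scaling (adjusted p = 0.749) and in 4 of 6 fits with a library left out.

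Imp4, which joins the U3 snoRNA to the precursor, was at 62.3, 63.2 and 64.04 TPM in the 3 Ctrl libraries, 53.2, 55.8 and 54.5 in MMA, 57.8, 57.1 and 59.9 in FA and 56.9, 57.9 and 53.1 in MMA_FA. Again all treated libraries lay below all controls. Its difference was -0.21 (SE 0.04, adjusted p = 0.00722) with MMA and -0.17 (SE 0.04, adjusted p = 0.0071) with MMA_FA; both held with any 1 library left out, and neither passed under median-ratio scaling (adjusted p = 0.0734 and 0.43).

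A further 4 of the 18 were lower with both MMA and MMA_FA or with MMA_FA alone. Utp20, a scaffold protein, Nop14, a processome protein, and Nat10, the acetyltransferase of ribosomal RNA, were lower with MMA (-0.23, -0.18 and -0.20) and with MMA_FA (-0.16, -0.21 and -0.15), and Bms1, a GTPase, with MMA_FA (-0.15). None of these was called under median-ratio scaling, and Nop14 with MMA_FA was the 1 call of the 7 that held with any 1 library left out. Utp18, Imp3, Noc4l, Dcaf13 and Ddx10 were not called, with differences from -0.21 (Ddx10, FA) to -0.05 (Imp3, MMA_FA).

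Ltv1, an adaptor of 40S export and maturation, went the other way from its neighbours and is named after its values were seen. Ltv1 measured 56.8, 58.8 and 59.4 TPM in the 3 Ctrl libraries, 64.4, 63.2 and 61.9 in MMA, 66.03, 60.5 and 62.7 in FA and 61.1, 61.6 and 60.9 in MMA_FA. All 9 treated libraries lay above all 3 controls. On TPM as deposited it was not called (0.11 with MMA, adjusted p = 0.067; 0.11 with FA, adjusted p = 0.0901; 0.07 with MMA_FA), and under median-ratio scaling it was called higher in all 3 (0.19, adjusted p = 0.0119; 0.16, adjusted p = 0.0332; 0.19, adjusted p = 0.00488).

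Of the 9 genes of 60S assembly, 4 were lower with MMA, 2 with FA and 4 with MMA_FA, and 1 was higher with MMA_FA. Among all genes, 16.5%, 8.7% and 32.6% were lower, and 6.67% were higher with MMA_FA. Noc3l, the partner of Noc2l in a complex that escorts pre-60S particles, was at 40.5, 36.3 and 41.1 TPM in the 3 Ctrl libraries, 34.4, 33.4 and 31.2 in MMA, 31.8, 35.2 and 30.8 in FA and 32.7, 29.4 and 33.5 in MMA_FA. All treated libraries lay below all controls. The difference was -0.25 (SE 0.07, adjusted p = 0.0276) with MMA, -0.26 (SE 0.07, adjusted p = 0.0307) with FA and -0.29 (SE 0.07, adjusted p = 0.00579) with MMA_FA. Under median-ratio scaling the FA call was kept, at the threshold (adjusted p = 0.0499), and the other 2 were not, and with a library left out the MMA and FA calls were each lost in 4 of 6 fits and the MMA_FA call in none.

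Noc2l was at 36.1, 36.9 and 36.2 TPM in the 3 Ctrl libraries, 31.4, 31.7 and 30.2 in MMA, 34.4, 32.8 and 36.3 in FA and 33.4, 32.5 and 32.5 in MMA_FA. The MMA libraries lay below all others, and the FA libraries overlapped Ctrl. It was called with MMA (-0.22, SE 0.05, adjusted p = 0.00739, under both scalings and with any 1 library left out) and with MMA_FA (-0.15, SE 0.05, adjusted p = 0.0212), which median-ratio scaling ended (adjusted p = 0.665), as did 4 of 6 fits with a library left out.

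Nop16, a 60S factor with the highest level of these 9, was at 71.8, 66.8 and 69.9 TPM in the 3 Ctrl libraries, 60.3, 58.95 and 64.96 in MMA, 66.5, 62.4 and 61.9 in FA and 63.9, 62.1 and 63.5 in MMA_FA. All treated libraries lay below all controls, FA replicate 1 close to the lowest. It was lower with MMA (-0.18, SE 0.05, adjusted p = 0.0225) and with MMA_FA (-0.14, SE 0.05, adjusted p = 0.0394); neither call held under median-ratio scaling, and they were lost in 4 and 5 of 6 fits with a library left out. Nop2, a methyltransferase of the large subunit RNA, was lower with MMA (-0.21, adjusted p = 0.0328), a call that median-ratio scaling ended (adjusted p = 0.185), as did 5 of 6 such fits.

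Pes1, Bop1 and Wdr12 form the PeBoW complex, which is needed to process the large subunit RNA, and they did not move as 1 unit. Pes1 stood at 46.9, 47.98 and 47.4 TPM in the 3 Ctrl libraries, 42.3, 46.98 and 47.3 in MMA, 49.7, 49.99 and 51.3 in FA and 51.3, 52.04 and 51.9 in MMA_FA. All FA and MMA_FA libraries of Pes1 lay above all controls, and the MMA libraries overlapped them. It was called higher with MMA_FA (0.12, SE 0.05, adjusted p = 0.0486), a call that was lost in all 6 fits with a library left out and without the mean-variance trend (adjusted p = 0.0624), and that passed under median-ratio scaling (0.24, adjusted p = 0.00365). Wdr12 was called lower with FA (-0.20, SE 0.06, adjusted p = 0.0439) and with MMA_FA (-0.20, SE 0.06, adjusted p = 0.02), each missing the threshold with median-ratio scaling (adjusted p = 0.129 and 0.393) and in 4 of 6 fits with a library left out. Bop1 was not called, at -0.11, 0.07 and -0.01. Rrs1, which brings the 5S particle to the pre-60S, and Rrp1b, a nucleolar protein, lay between -0.14 and 0.10 without a call.

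The last 5 genes encode abundant proteins with several tasks in the nucleolus. Ncl (nucleolin) binds nascent ribosomal RNA. The Ncl level was 565, 584 and 601 TPM in the 3 Ctrl libraries, 549.9, 535 and 494 in MMA, 492, 523 and 466 in FA and 475, 505 and 492 in MMA_FA. Every treated library lay below every control. Ncl was called lower with FA (-0.24, SE 0.05, adjusted p = 0.0155, under both scalings) and with MMA_FA (-0.25, SE 0.05, adjusted p = 0.00275), and not with MMA (-0.15, adjusted p = 0.0568). The FA call was lost without Ctrl replicate 3 or FA replicate 1, and the MMA_FA call under median-ratio scaling (adjusted p = 0.0917).

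Mybbp1a, a MYB-binding nucleolar protein, was at 49.3, 48.04 and 49.8 TPM in the 3 Ctrl libraries, 42.2, 41.8 and 44.5 in MMA, 49.01, 43.5 and 51.01 in FA and 47.7, 49.3 and 47.3 in MMA_FA. Its MMA libraries lay wholly below Ctrl, and the FA and MMA_FA libraries overlapped it. It was lower with MMA (-0.19, adjusted p = 0.0306), a call that median-ratio scaling ended (adjusted p = 0.202), as did 5 of 6 fits with a library left out. The RNA helicase Ddx21 was lower with MMA_FA (-0.12, adjusted p = 0.0186), a call lost under median-ratio scaling and without Ctrl replicate 1 or MMA_FA replicate 1. Npm1 (nucleophosmin) and Gnl3 (nucleostemin) were not called, at -0.08 to -0.14 and at -0.16 to -0.25; Npm1 has near-identical copies in the genome, and the sources used here do not say how reads were shared among them.

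**Figure D3:**
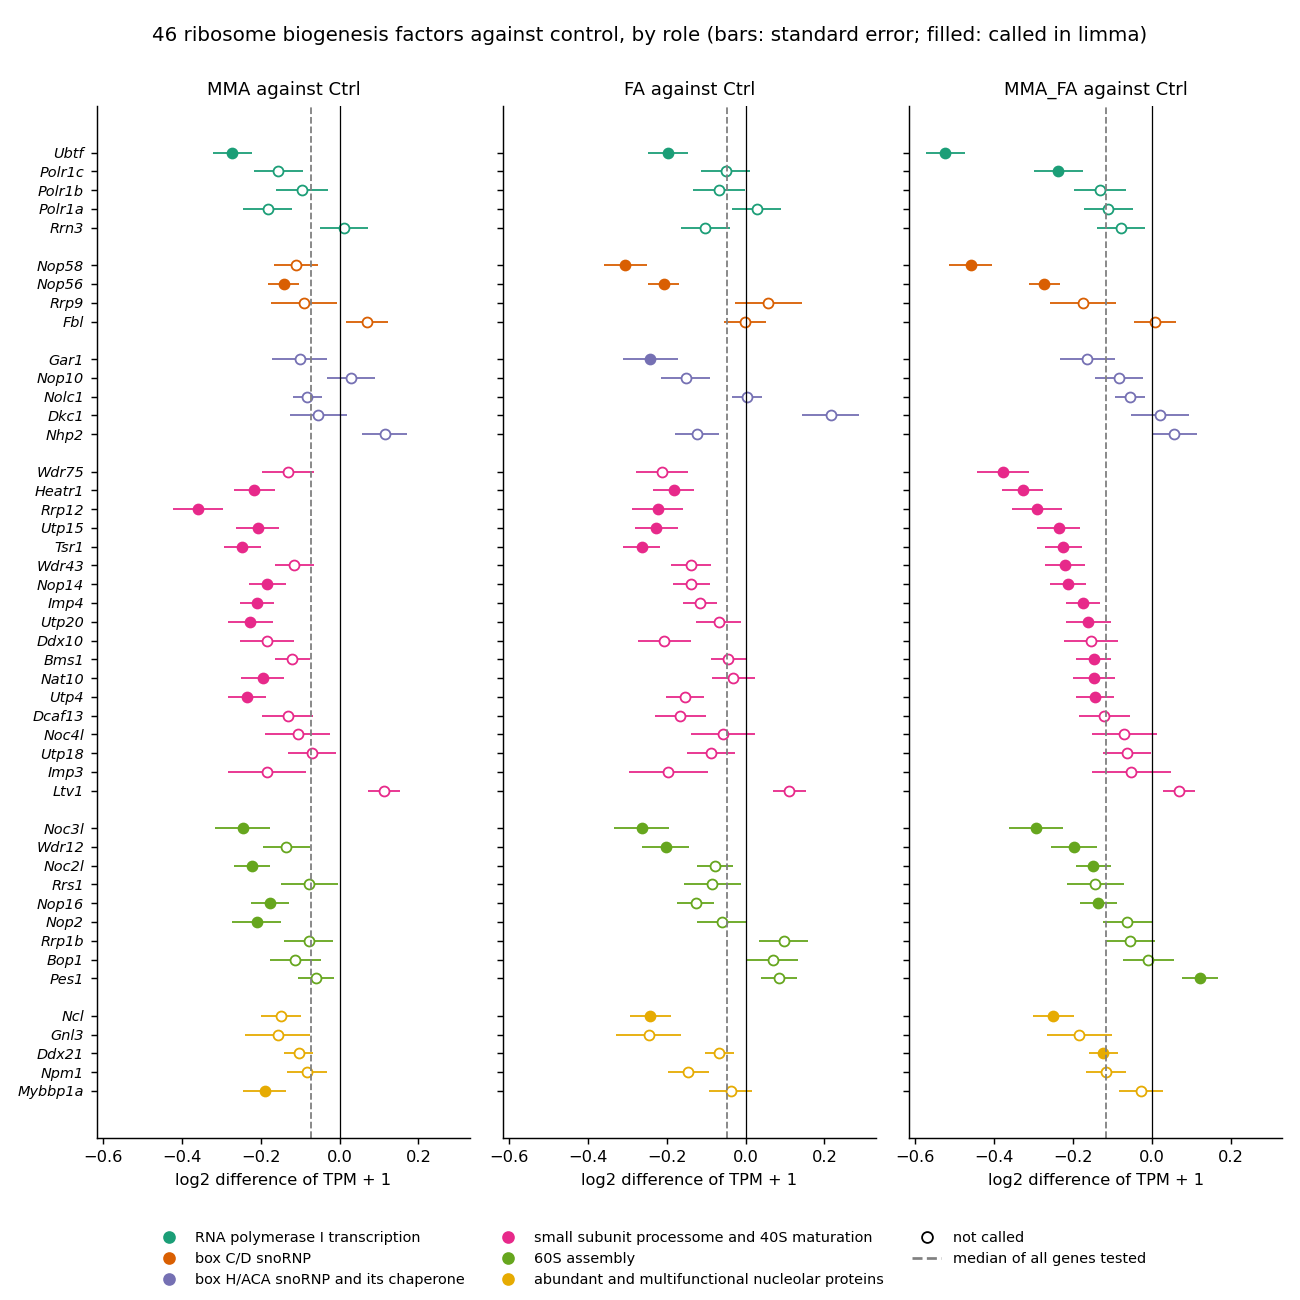
Log2 difference of TPM + 1 from Ctrl (horizontal axis) of each of the 46 genes (rows, grouped by role) with its standard error as a bar, in 3 panels for MMA, FA and MMA_FA. Filled points were called in limma, and the dashed line is the median of all genes tested, at -0.07, -0.05 and -0.12. Most points lie left of 0, with Ubtf farthest left in the MMA_FA panel.

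MMA_FA against MMA asks what FA added to cells with MMA. Of the 46 genes 4 were lower (9.53% of all genes) and 1 was higher (4.19%), and the members' median of -0.03 was close to that of all genes, -0.04. Nop58 (-0.35, SE 0.06, adjusted p = 0.00147) and Ubtf (-0.25, SE 0.05, adjusted p = 0.00593) were lower under both scalings and with any 1 library left out. Wdr75 (-0.25, SE 0.07, adjusted p = 0.0268) and Nop56 (-0.13, SE 0.04, adjusted p = 0.0447) were lower on TPM as deposited and not under median-ratio scaling (adjusted p = 0.0632 and 0.186), and lost their calls in 4 and 5 of 6 fits with a library left out. Wdr75 was also lost without the filter on low genes (adjusted p = 0.0549), and Nop56 in a fit of only the 2 groups (adjusted p = 0.0791) and without the mean-variance trend (adjusted p = 0.0725). Pes1 was higher (0.18, SE 0.05, adjusted p = 0.0203), also under median-ratio scaling, and lost its call without MMA replicate 1 or without MMA_FA replicate 2 or 3, and in a fit of only the 2 groups (adjusted p = 0.0633). Median-ratio scaling gave 2 lower (6.19% of all genes) and 2 higher (6.39%), the second of them Mybbp1a (0.21, adjusted p = 0.034), named after its values were seen. All MMA_FA libraries lay below all MMA libraries in 7 genes (22% of all genes) and above them in 3 (10.7%).

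MMA_FA against FA asks what MMA added to cells with FA. It gave 1 call, Ubtf, which was lower (-0.33, SE 0.05, adjusted p = 0.00496) under both scalings and with any 1 library left out; 8.9% of all genes were lower and 1.6% higher. When only the FA and MMA_FA libraries were fitted, Ubtf was no longer called (adjusted p = 0.0606). Under median-ratio scaling Nhp2 was higher (0.25, adjusted p = 0.0311), and 2.46% of all genes were lower and 3.43% higher. All MMA_FA libraries lay below all FA libraries in 8 genes (23.7% of all genes) and above them in 2 (5.07%). So Ubtf was the 1 gene of the 46 that was called in all 5 comparisons of 2 groups, comparisons that share libraries.

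Whether MMA and FA together did more or less than the sum of each alone was read from the interaction, the effect of both minus the 2 single effects. It was called for 1 gene, Tsr1 (0.29, SE 0.07, adjusted p = 0.0467), a positive value: its difference from Ctrl was -0.25 with MMA, -0.26 with FA and -0.22 with both. In all genes 0.938% had a positive and 1.47% a negative interaction, and 1.04% and 1.62% under median-ratio scaling, where Tsr1 was also the 1 call (0.28, adjusted p = 0.0361). The call was lost in 11 of 12 fits with a library left out, with adjusted p up to 0.107, the exception being that without MMA replicate 1. It was also lost without the mean-variance trend (adjusted p = 0.0652) and without the filter on low genes (adjusted p = 0.0587). Utp4 (0.25, adjusted p = 0.0849) and Rrp12 (0.29, adjusted p = 0.117) did not pass. The interaction was positive in 37 of the 46 genes (51.4% of all genes), with a median of 0.09 against 0.01 for all genes. An unadjusted p under 0.05 was seen in 13 of the 46 (17.6% of all genes), in 12 with a positive value and in Ltv1 with a negative one (-0.16, adjusted p = 0.189). For Ubtf it was -0.05 (95% confidence interval -0.21 to 0.10), and for Nop58 -0.04 (95% confidence interval -0.21 to 0.13).

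Across the 4 groups together, the F test of the same fit found that 25 of the 46 genes differed (41% of all genes), and 12 under median-ratio scaling (32.2% of all genes). The smallest adjusted p was that of Ubtf, 0.000212, followed by Nop58, 0.000551.

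Other parts of the pathway were read from lists written from general knowledge, and no test compared these lists with the 46 genes. Of 40 other small subunit factors, 10 were lower with MMA, 7 with FA and 16 with MMA_FA, and 2 were higher with MMA_FA. Of all genes tested, 16.5%, 8.7% and 32.6% were lower and 3.85%, 3.67% and 6.67% higher. Riok3, a kinase of late 40S maturation, was lower with FA (-0.33, adjusted p = 0.0129) and MMA_FA (-0.55, adjusted p = 0.000129), and Nob1, the nuclease of the last 40S cut, with MMA (-0.25, adjusted p = 0.00389). The FA call of Riok3 was lost in 1 of 6 fits with a library left out. Of 46 other large subunit factors, 11, 9 and 15 were lower and 1, 1 and 4 higher. The giant AAA ATPase Mdn1, which strips factors from pre-60S particles, was lower in all 3 (-0.50, adjusted p = 0.00133, -0.26, adjusted p = 0.0243 and -0.44, adjusted p = 0.000386), and Nop53, which recruits the exosome to pre-60S particles, was higher in all 3 (0.27, adjusted p = 0.0201, 0.38, adjusted p = 0.011 and 0.37, adjusted p = 0.00209). These 2 kept their calls under median-ratio scaling, but with a library left out Mdn1 lost its FA call in 5 of 6 fits, and Nop53 its MMA call in 4 and its FA call in 1. Under that scaling the other small subunit factors gave 2, 1 and 3 lower and 1, 0 and 6 higher. The other large subunit factors gave 5, 3 and 7 lower and 2, 2 and 5 higher. The shares of all genes were then 6.91%, 3.88% and 13.9% lower and 8.16%, 5.78% and 15.5% higher.

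Of 14 other RNA polymerase I genes, 5, 4 and 6 were lower and 0, 0 and 1 higher. Polr1e, a subunit of the polymerase, was lower in all 3 (-0.33, adjusted p = 0.00621, -0.31, adjusted p = 0.0152 and -0.36, adjusted p = 0.00136), and Polr1g, another subunit, was higher with MMA_FA (0.22, adjusted p = 0.0249); with a library left out, the FA call of Polr1e was lost in 2 and the call of Polr1g in 3 of 6 fits. The export and late 60S list of 12 had 2, 3 and 4 lower, among them Eif6, which keeps the subunits apart, in all 3 (-0.18, adjusted p = 0.00874, -0.20, adjusted p = 0.011 and -0.28, adjusted p = 0.000233; the first was not called under median-ratio scaling). The snoRNP assembly list of 13 had 2 lower in each. The RNA exosome list of 14 had 0, 0 and 3 lower and 1, 0 and 0 higher. The RNA polymerase III list of 21 had 4, 1 and 7 lower and 0, 1 and 0 higher. These counts are to be read against 16.5%, 8.7% and 32.6% of all genes lower and 3.85%, 3.67% and 6.67% higher. Among 12 genes of the nucleolar stress and p53 response, 1, 2 and 6 were lower and 0, 1 and 1 higher, Sesn2, a stress-induced gene, with FA and MMA_FA. The KEGG pathway of ribosome biogenesis, as annotated in the deposited table, held 56 tested genes, 15 of them among the 46; the other 41 had 8, 9 and 14 lower and 1, 1 and 3 higher.

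Among the ribosome's own proteins, more genes were called higher than lower on all libraries. Across all genes, 3.85%, 3.67% and 6.67% were higher and 16.5%, 8.7% and 32.6% lower on TPM as deposited. With median-ratio scaling 8.16%, 5.78% and 15.5% were higher and 6.91%, 3.88% and 13.9% lower. Of 65 cytosolic ribosomal protein genes, 7, 4 and 15 were higher and 1, 0 and 3 lower on TPM as deposited. With median-ratio scaling 17, 8 and 33 of these 65 genes were higher and 1, 0 and 0 lower. Their median difference was 0.04 with MMA, 0.0009 with FA and 0.04 with MMA_FA on TPM as deposited, and 0.12, 0.05 and 0.15 under median-ratio scaling. With 1 library left out, 2 to 7 were higher and 1 lower with MMA, 0 to 5 higher and 0 to 8 lower with FA, and 9 to 14 higher and 0 to 3 lower with MMA_FA. Without FA replicate 2 the FA calls leaned the other way, to 5 higher and 8 lower, and without Ctrl replicate 3 or FA replicate 1 there were 0 in either direction. FA replicate 3 stood apart, with a median deviation of these genes from their 12-library mean of -0.11, against -0.01 and 0.02 in FA replicates 1 and 2. Rpl15 was higher in all 3 (0.29, adjusted p = 0.00669, 0.21, adjusted p = 0.0327 and 0.42, adjusted p = 0.000246), and Rpl37 was lower with MMA (-0.44, adjusted p = 0.00507) and MMA_FA (-0.29, adjusted p = 0.0144). The FA call of Rpl15 was lost in 5 of 6 fits with a library left out, and the MMA_FA call of Rpl37 in 2 and under median-ratio scaling. Such genes have many near-identical copies, and the sources used here do not say how reads were shared among them, so single values are uncertain.

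Myc itself was called in 1 of the 3 comparisons with Ctrl. Its TPM was 85.7, 83.2 and 89.2 in the 3 Ctrl libraries, 104, 104 and 99.95 in MMA, 78.5, 82.6 and 99.8 in FA and 77.2, 84.1 and 79.95 in MMA_FA. The MMA libraries were the highest 3 of the 12, although FA replicate 3 came close to the lowest of them. The difference from Ctrl was 0.26 (adjusted p = 0.0284) with MMA, 0.01 (adjusted p = 0.954) with FA and -0.10 (adjusted p = 0.311) with MMA_FA. The MMA call held under median-ratio scaling (0.33, adjusted p = 0.0124) and was lost in each of the 6 fits with a library left out, with adjusted p up to 0.085. Its paralog Mycn was higher in all 3 (0.36, adjusted p = 0.00715, 0.40, adjusted p = 0.00954 and 0.57, adjusted p = 0.000174), and Mycl was lower with FA (-0.56, adjusted p = 0.0114) and MMA_FA (-1.05, adjusted p = 4.97e-05). Of the 11 genes of MYC and its partners, 3, 1 and 2 were higher and 3, 2 and 4 lower. Among all genes, 3.85%, 3.67% and 6.67% were higher and 16.5%, 8.7% and 32.6% lower. Mycl lost its FA call in 1 of 6 fits with a library left out.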

How the data were processed

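RNA of 12 H9c2 libraries, 4 groups of 3, was measured by sequencing of polyadenylated RNA. Per the labels' protocols, TRIzol was used for extraction and 1 µg of RNA went into each Illumina Stranded mRNA Prep library. The submitters' processing notes name fastp, HISAT2 and the build mRatBN7.2, and the deposited table's title names RSEM; the sources used here give no versions, annotation or strand setting. The authors deposited TPM, 1 column a library. TPM keeps no depth, so counting error is unknown.

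From these values, log2(TPM + 1) was fitted in limma 3.58.1 (R 4.3.3) for the 12263 genes that averaged 1 TPM or more, with 1 mean per group over all libraries and a mean-variance trend (8 residual and 4.317 prior degrees of freedom). Benjamini-Hochberg adjustment ran over all genes, with calls under 0.05. The code was tested on simulated data. A permutation test of 3 against 3 libraries cannot give a p below 0.1 and was not used. Alternatives were median-ratio scaling, a pseudocount of 0.1, a filter at 5 TPM or none, no trend, a replicate block, TPM without mitochondrially encoded genes, only the groups compared, and each library left out.

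The 46 members, their roles and the other lists were chosen with earlier results of these data known. Values per library are given for up to 6 called members a direction and comparison by smallest p, with a group mean of at least 5 TPM, and for the highest member of each role; members called in all 3 comparisons with Ctrl or in the interaction are named, and up to 3 genes of other lists a direction. Values per library of Polr1c, Gar1, Mybbp1a and Noc3l are given beyond this rule. Further genes are marked as named after their values were seen. Promoters came from a RefSeq table (GRCr8), 1 start a gene. Protein sequences were not used here. Python 3.11.15 and matplotlib 3.10.9 drew the plots.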

Additional observations from a re-analysis of the deposited data

Results flagged for a closer look

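Tsr1, a factor of 40S maturation, is listed because the effect of one treatment differed with the presence of the other by a test of the difference itself, the interaction in limma. The interaction was 0.29 on the log2 scale (SE 0.07, adjusted p = 0.0467), with differences from Ctrl of -0.25 with MMA, -0.26 with FA and -0.22 with both. It was the 1 interaction called among the 46 genes, at an adjusted p close to the threshold, and it was lost in 14 of 19 other fits: 11 of 12 with a library left out, the replicate block, no mean-variance trend and no filter on low genes.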

How the results depend on the processing

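Depth is unknown and each group has 3 libraries, so small differences could not be resolved, and the calls near the threshold moved with most settings; none of the 26 calls of the genes named by rule changed sign in any fit. Myc with FA, which was not called, ran from -0.09 to 0.08 with a library left out. Median-ratio scaling, which sets the median gene to no change, gave for the 46 genes 5 lower and 1 higher with MMA, 5 lower and 2 higher with FA, 5 lower and 3 higher with MMA_FA, 2 lower and 2 higher in MMA_FA against MMA, 1 higher in MMA_FA against FA, and 12 differing across the 4 groups. TPM without mitochondrially encoded genes gave 1 higher with MMA and 1 higher in MMA_FA against FA. With no filter beyond a mean above 0, 6 were lower with FA and 0 had an interaction. A fit of only the groups compared gave 4 lower with FA and 0 lower in MMA_FA against FA. A pseudocount of 0.1 gave 0 higher with MMA_FA, and so did a fit without the mean-variance trend, which also gave 0 interactions. The filter at 5 TPM moved none of these counts by over 1.5 times.

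The replicate number as a block gave 1 higher with FA, 0 higher with MMA_FA and 0 interactions, and moved no other count by over 1.5 times. The numbers share no stated source: same-numbered libraries of different groups had correlations of residuals from -0.124 to 0.107, over 0.1 in 1 of 18 pairs, and 0 of 12 libraries correlated best with their own number.

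With each library left out in turn, the genes called lower numbered 7 to 12 with MMA, 3 to 15 with FA, 15 to 19 with MMA_FA, 2 to 4 in MMA_FA against MMA and 1 to 2 in MMA_FA against FA. Of all genes, 7.64% to 13.1%, 1.17% to 13.9%, 24.6% to 28.5%, 4.74% to 10.1% and 2.3% to 13.7% were lower in the same fits. Members called higher numbered 0 to 2 with FA, 0 with MMA_FA (in each of the 6 fits), 0 to 1 in MMA_FA against MMA, 0 to 1 in MMA_FA against FA and 0 to 1 in the interaction. From 13 to 33 differed across the 4 groups, 15 without Ctrl replicate 1 and 13 without Ctrl replicate 3. In each such fit the lone pair of a group was assumed to vary like the other groups.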
